A study of Mus musculus with 8 samples.

Results

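The stress sensors of the endoplasmic reticulum (ER) and the transcription factors they release were followed in mouse liver by RNA sequencing. They are 10 genes, taken by symbol out of the 22923 symbols in the deposited tables: Xbp1, Ern1, Atf6, Atf6b, Eif2ak3, Mbtps1, Mbtps2, Creb3l2, Creb3l3 and Creb3. The tissue came from C57BL/6 mice of 2 genotypes, labelled Xbp1flox and Xbp1-/-, the second lacking Xbp1 in the liver. Each genotype was on regular chow or on a fat-rich diet supplemented with the equivalent of high-fructose corn syrup, in both cases for 4 weeks. Values listed in a row below follow 1 order, namely flox on chow, flox on high fat, knockout on chow, knockout on high fat. Each of these 4 groups held 4 mice whose samples were combined into 2 libraries. The sources used here do not give the age and sex of the mice, the Cre line or the deleted exon. The tables analysed hold 1 value per gene and group, in RPKM (reads scaled to transcript length and library size). The spread between libraries is therefore unknown, and no difference below carries a test, a standard deviation or a p-value.

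The unfolded protein response is the programme by which a cell answers misfolded protein in the ER. It has 3 arms, each opened by a protein in the ER membrane. IRE1, encoded by Ern1, is a kinase and RNase that cuts Xbp1 mRNA so that the rejoined message encodes the active factor XBP1s, and it also degrades other mRNAs. PERK, encoded by Eif2ak3, phosphorylates eIF2alpha and so raises translation of ATF4. ATF6 and its relative ATF6B travel to the Golgi, where the site 1 protease (Mbtps1) and then the site 2 protease (Mbtps2) free their transcription factor domains. The same proteases process SREBP proteins and the CREB3 family, to which Creb3, Creb3l2 and the liver-rich Creb3l3 (CREBH) belong. Liver secretes large amounts of plasma protein and lipoprotein, and XBP1 is known there as a factor for both secretory capacity and lipid synthesis.

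All 10 genes lie on different loci of the mm10 mouse build (GRCm38, GENCODE M21 annotation). Xbp1 spans chr11:5520659-5525893 on the plus strand, Ern1 chr11:106394650-106487852 on the minus strand, and Eif2ak3 chr6:70844515-70905245 on the plus strand. Atf6 spans chr1:170704674-170867771 (minus), Atf6b chr17:34647146-34655074 (plus), Mbtps1 chr8:119508156-119558735 (minus) and Mbtps2 chrX:157535371-157598715 (minus). The CREB3 family genes are Creb3l2 at chr6:37327255-37442146 (minus), Creb3l3 at chr10:81084324-81098874 (minus) and Creb3 at chr4:43562332-43567060 (plus).

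The sequence IRE1 cuts is shown because it decides which protein Xbp1 mRNA encodes, and because the RPKM value cannot see it. It was located in the longest annotated Xbp1 transcript, of 2129 bases, as 2 copies of the letters CNGCNG (searched on the transcript strand) spaced 26 bases apart. That spacing occurred 2 times among the 23 matches in the transcript. The pair in exon 4, within the coding sequence, is printed with its flanks, at chr11:5524262-5524321 on the plus strand. Capitals mark the 26 bases between the cuts, at chr11:5524279-5524304, and the second line is the message with those bases taken out.
Xbp1 before cutting: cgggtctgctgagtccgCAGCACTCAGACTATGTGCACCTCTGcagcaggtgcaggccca
Xbp1 after joining: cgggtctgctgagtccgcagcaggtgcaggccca
Removal of the 26 bases lengthened the computed reading frame from 267 to 371 codons. The other pair lay in exon 1, and its removal would leave 73 codons. A value per gene adds up cut and uncut Xbp1 mRNA, so the splicing state was not measured in these tables. The transcript's 5 exons hold 542, 97, 135, 146 and 1209 bases, the last being 56.8% of its length. Because the deleted exon is not given, gene-level RPKM also does not separate intact from truncated Xbp1 RNA.

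In flox livers on chow, Xbp1 and Creb3l3 were by far the most abundant of the 10 mRNAs and the PERK gene Eif2ak3, Creb3l2 and Mbtps2 the scarcest. Xbp1 stood at 112 RPKM and Creb3l3 at 104 RPKM, above 93.7% and 93.3% of the 10351 genes kept (at least 1 RPKM in at least 1 group). Creb3 followed at 18.8 RPKM, Mbtps1 at 12.2, Atf6 at 8.09 and Atf6b at 6.41 RPKM. The sensor gene Ern1 had 3.86 RPKM, Creb3l2 2.97, Eif2ak3 2.92 and Mbtps2 1.41 RPKM. The sensors IRE1 and PERK were thus encoded by mRNAs well below that of the factor XBP1, with an Ern1 to Xbp1 ratio of 0.0346. In the other 3 groups Creb3l3 came before Xbp1. Last place was held by Mbtps2 except in knockout livers on chow, where Creb3l2 was lowest. Ern1 was above Atf6b in both knockout groups and below it in both flox groups. With the spread unknown, neighbours in this order cannot be told apart beyond it. All 10 genes were above 0 in every group and passed the filter. The largest range over groups was that of Creb3l2, whose highest value was 3.38 times its lowest, followed by Xbp1 at 3.27 and Eif2ak3 at 2.46 times. The other 7 ranged from 1.27 times for Mbtps1 to 1.63 times for Atf6b.

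**Figure D1:**
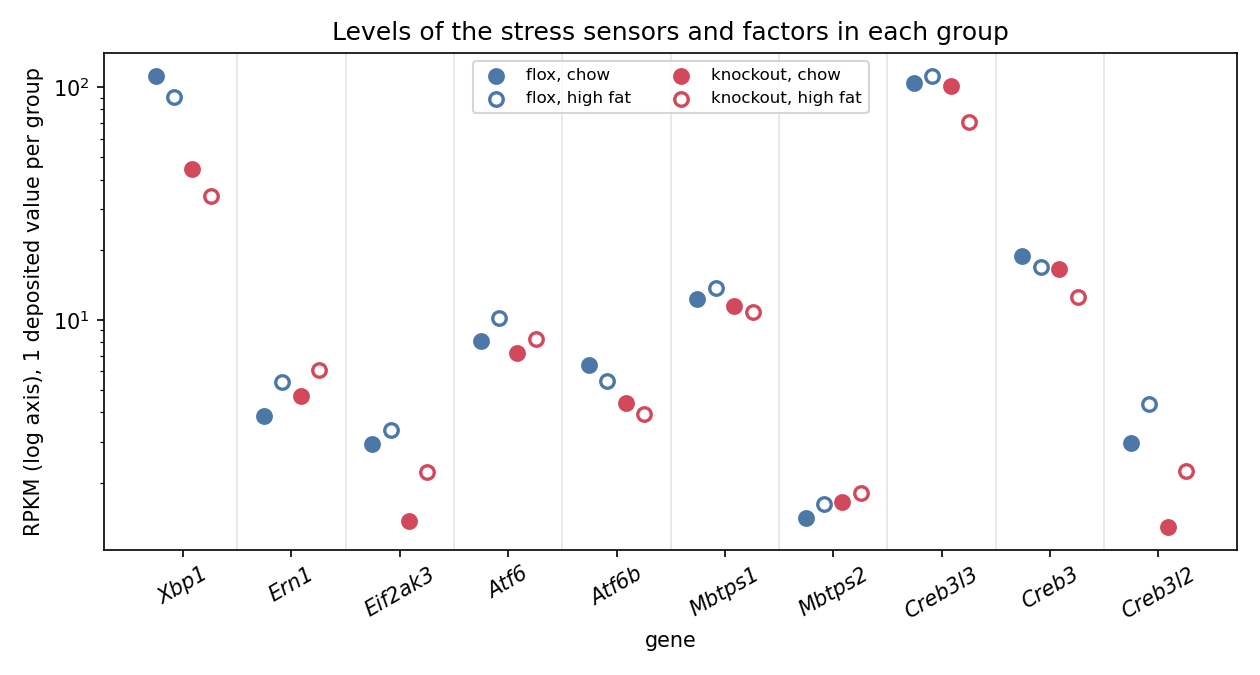
RPKM of the 10 genes (log axis) in the 4 groups, 1 deposited value per gene and group; blue is flox and red knockout, filled points are chow and open points high fat. Xbp1 and Creb3l3 sit highest, and the blue and red points lie far apart for Xbp1 on both diets and for Eif2ak3 and Creb3l2 on chow.

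Changes below are log2 ratios of RPKM + 1, which understate the change of low genes such as Eif2ak3, Creb3l2 and Mbtps2. A gene is said to have risen or fallen where the ratio passed 2-fold. The median change of all genes was -0.02 for knockout against flox on chow and -0.13 on high fat. It was -0.01 for high fat against chow in flox and -0.11 in knockout. The deposited values summed to 513694, 461725, 461392 and 367414 RPKM. Leaving the 50 most abundant genes out of the scaling put these medians at 0.10, 0.12, 0.09 and 0.13. Albumin (Alb) is listed at 0 in all 4 groups, so a 0 in these tables may be a failed estimate. Serpina1c, another hepatocyte marker, is listed at 0 in the first 3 groups and at 3004 RPKM in knockout on high fat. The other 8 hepatocyte markers summed to 27525, 24489, 18296 and 11949 RPKM, and 3 of them fell in knockout on high fat. These were Apoa1, Cyp2e1 and Cps1. Apoa1 is also on the list of CREB3L3 targets below and Cyp2e1 on that of IRE1 decay substrates. The hepatocyte sum is therefore not independent of those lists. Cholangiocyte and progenitor markers summed to 23.6, 25.0, 46.3 and 118 RPKM, and 4 of 6 rose in knockout on high fat. Most of that sum was Spp1, at 19.7, 20.6, 39.4 and 103 RPKM. Kupffer cell and macrophage markers summed to 126, 143, 127 and 197 RPKM (0 of 8 rose), and stellate and fibroblast markers to 100.2, 96.9, 125 and 161 RPKM (2 of 7 rose). Most of the stellate and fibroblast sum was Dcn, at 86.7 RPKM in flox on chow and 130 RPKM in knockout on high fat. In knockout against flox on high fat, 1.07% of all genes rose and 1.86% fell. The marker sums moved with genotype and diet, and their part in the results was not tested. In whole tissue, fewer cells of a type and less RNA per cell cannot be told apart.

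Of the IRE1 arm, the factor gene Xbp1 was lower in the knockout and the sensor gene Ern1 was not. Xbp1 read 112 and 90.7 RPKM in flox livers (chow, then high fat) and 44.2 and 34.1 RPKM in knockout livers. Both knockout values were below both flox values, at 39.6% of flox on chow and 37.6% on high fat, and Xbp1 was the targeted gene. Its log2 change was -1.32 on chow and -1.39 on high fat, rank 77 from the lowest of 10322 genes and 69 of 10327. Ern1 read 3.86, 5.39, 4.69 and 6.10 RPKM. Each knockout value of Ern1 was above the flox value on the same diet, at 122% on chow (log2 0.23) and 113% on high fat (log2 0.15), short of the 2-fold mark. The Ern1 to Xbp1 ratio, which no scaling between groups can move, was 0.0346, 0.0595, 0.106 and 0.179. Among 4077 genes with at least 10 RPKM in a group, the 5 whose centred log2 profile over the 4 groups was closest to that of Xbp1 were F7, Thrsp, Apon, Ndufa9 and Sec61g, at Euclidean distances of 0.158 to 0.207. F7 encodes coagulation factor VII, and Sec61g, the furthest of the 5, a subunit of the ER translocon. Each profile rests on 4 values, and whether these genes share regulation with Xbp1 was not tested.

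Most listed genes that XBP1s is known to switch on were lower in the knockout, as total Xbp1 RNA was. XBP1s itself was not measured. Of 34 listed targets (folding enzymes, translocation and glycosylation machinery), 14 fell and 0 rose on chow, with a median of -0.86, and 6 fell and 0 rose on high fat, with a median of -0.71. Over all genes 1.37% fell on chow and 1.86% on high fat. As deposited, all 34 targets were below 0 on chow and 33 on high fat. P4hb, the protein disulfide isomerase, read 476 and 491 RPKM in the flox groups against 157 and 189 in knockout (log2 -1.60 on chow, -1.37 on high fat). Erp44, a thioredoxin-family retention factor, changed by -1.69 and -1.24, and Rpn1, an oligosaccharyltransferase subunit, by -1.47 and -1.10. Pdia5 (-0.09 and -0.06) and Spcs1 (-0.16 and -0.19) were the listed targets that differed least. With the 50 most abundant genes left out of the scaling, 8 fell and 0 rose on chow, and 1 fell and 1 rose on high fat; by the median ratio the high-fat counts were 3 and 1. The target above 0 on high fat was Derl3 (named after its values were seen), a component of ER-associated degradation, which read 7.42, 4.82, 2.92 and 9.95 RPKM. It changed by -1.10 on chow and 0.91 on high fat, a difference of 2.02. With a pseudocount of 5 RPKM, 8 targets fell on chow. Of 20 mRNAs listed as substrates of IRE1-dependent decay, 13 fell on chow (median -1.44), and 12 fell and 1 rose on high fat (median -1.23). That list draws on earlier work in this knockout model and is not independent evidence of its direction. Its largest changes were in carboxylesterase genes of the same family, Ces1g (-3.31 and -2.13), Ces1e (-3.29 and -2.82), Ces1c (-3.28 and -2.49) and Ces1d (-3.12 and -2.78). Whether these related genes shared reads was not tested. The one that rose on high fat was Scara3 (1.23, named after its values were seen). Galnt2 (0.08 and -0.21) and Sparc (0.05 and 0.49) were its smallest.

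Among genes that bind or tune the sensors, 6 of 22 fell on chow (median -0.20) and 1 on high fat (median -0.37), with 0 rises on both diets. By comparison, 1.37% of all genes fell on chow and 1.86% on high fat. With the 50 most abundant genes left out, 2 of the list fell on chow and 0 on high fat. At a pseudocount of 5 RPKM 2 fell on chow. Dnajb9, a luminal co-chaperone that restrains IRE1, read 32.9 and 35.4 RPKM in flox against 11.3 and 13.9 in knockout, and fell on both diets (-1.46 and -1.29). Hspa5, encoding BiP, the chaperone that holds all 3 sensors inactive, read 204 RPKM in flox chow and 99.8 in knockout chow, but 181 and 136 on high fat. Its log2 change was -1.02 on chow and -0.41 on high fat. Sdf2l1, a BiP partner, changed by -1.46 and -0.81, Dnajc3, an inhibitor of PERK, by -1.06 and -0.83, and Ppp1r15b, the constitutive eIF2alpha phosphatase subunit, by -1.06 and -0.96. Bcl2l1 (-0.08 and -0.10) and Bak1 (0.10 and -0.12) differed least. Hspa5 is outside the naming rule and was chosen after its values were seen, as the chaperone common to the 3 arms. Of the 6 that fell on chow, all but Ppp1r15b are also listed as targets of XBP1s or ATF6. They are Hspa5, Dnajb9, Dnajc3, Sdf2l1 and Pdia6, the last also named after its values were seen. These list results are therefore not independent of each other.

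Of the PERK arm, the sensor mRNA was lower in the knockout. Several listed genes of the ATF4 and CHOP programme passed 2-fold upwards there, most of them on high fat only. Of the 26 compared, 19 were above 0 on chow and 20 on high fat, against 45.8% and 29.9% of all genes. Whether PERK acted on those genes in these livers was not tested. Eif2ak3 read 2.92 and 3.35 RPKM in flox livers and 1.36 and 2.22 RPKM in knockout livers. Both knockout values lay below both flox values, at 46.7% of flox on chow and 66.3% on high fat. The log2 change was -0.73 on chow, where 2.56% of genes were lower, and -0.43 on high fat, where 15.2% were lower. Of 26 kept genes of the ATF4 and CHOP programme (31 were found), 2 rose and 0 fell on chow (median 0.23), and 8 rose and 1 fell on high fat (median 0.22). Over all genes 0.252% rose on chow and 1.07% on high fat. With a pseudocount of 5 RPKM, 1 of the list rose on chow, and 4 rose and 0 fell on high fat. The one that fell was Chac1 (-1.11), which was not past 2-fold with the 50 most abundant genes left out, and with Asns the other rise on chow was that of Fgf21 (1.39), both named after their values were seen. Asns, asparagine synthetase, read 4.02, 1.82, 44.0 and 17.9 RPKM, a rise on both diets (3.17 and 2.74). Ddit3, which encodes CHOP, read 4.23, 4.99, 5.78 and 18.0 RPKM, standing apart in knockout high fat (0.37 on chow, 1.67 on high fat). Nupr1, a stress-response cofactor, changed by 0.40 and 1.95, and Slc3a2, an amino acid transporter chain, by 0.49 and 1.35. Atf4 mRNA itself differed little (-0.11 and 0.00), as did Sars (0.18 and 0.09), although ATF4 is mainly set by translation, which was not measured.

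Of the ATF6 arm, neither sensor passed 2-fold, and both were lower in the knockout on both diets, except that Atf6 on high fat turned to 0.01 once the 50 most abundant genes were left out of the scaling. Atf6 read 8.09 and 10.1 RPKM in flox and 7.23 and 8.26 RPKM in knockout, changes of -0.14 on chow and -0.27 on high fat.  The flox and knockout ranges of Atf6 overlapped, since knockout high fat lay above flox chow. Atf6b read 6.41, 5.46, 4.40 and 3.92 RPKM, with both knockout values below both flox values and changes of -0.46 and -0.39. The ratio of Atf6 to Atf6b was 1.26, 1.86, 1.65 and 2.11. Listed ATF6 targets numbered 17, of which 9 fell on chow (median -1.02) and 1 on high fat (median -0.52), with 0 rises. The share of all genes that fell was 1.37% on chow and 1.86% on high fat. The list includes the targeted gene Xbp1, which was the one that fell on high fat, and shares members with the XBP1s list and the list of sensor regulators. Hyou1, a large ER chaperone on both lists, changed by -1.53 on chow and -0.85 on high fat, and Creld2, a disulfide isomerase-like protein, by -1.21 and -0.71. Hsp90b1 (-0.48 and -0.21) and Sel1l (-0.33 and -0.41) changed least. With the 50 most abundant genes left out of the scaling, 4 ATF6 targets fell on chow, and with a pseudocount of 5 RPKM 3 did.

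**Figure D2:**
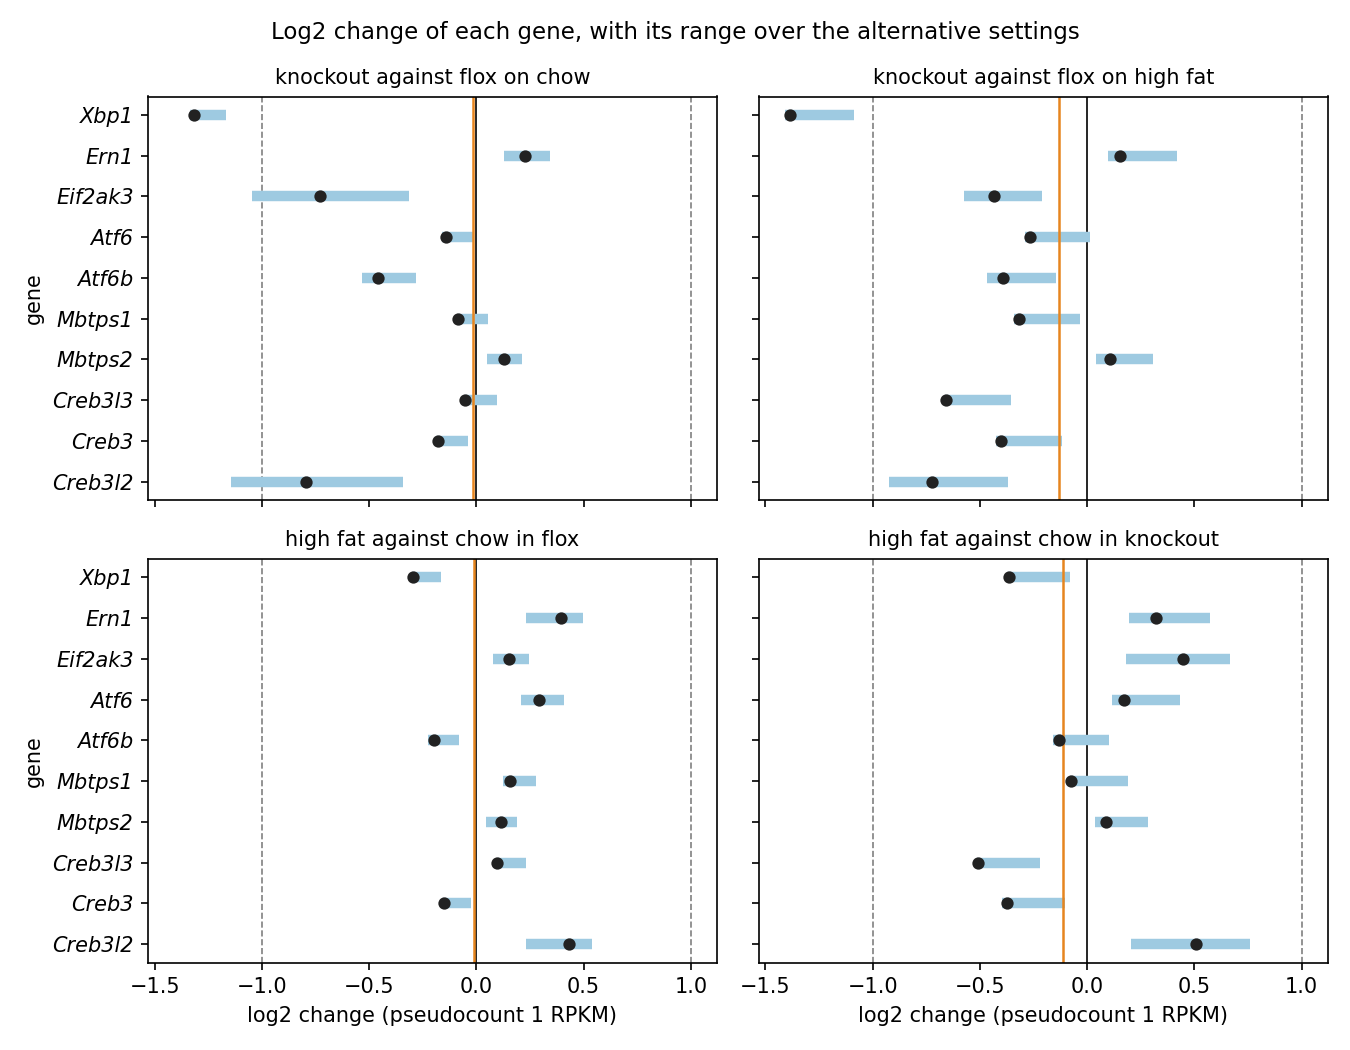
Log2 change of RPKM + 1 for each gene in the 4 comparisons (1 panel each): dots are the values given in the text, pale bars the lowest and highest value over all settings tried, orange lines the median of all genes and dashed lines the 2-fold mark. Xbp1 lies past the mark in the knockout panels (-1.32 and -1.39), and in both diet panels all 10 dots lie inside it.

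The protease mRNAs had the smallest ranges of the set. Mbtps1 read 12.2 and 13.7 RPKM in flox and 11.5 and 10.8 RPKM in knockout. Its changes were -0.08 on chow and -0.32 on high fat, and over the settings tried the chow value ran from -0.09 to 0.05. Mbtps2 read 1.41, 1.61, 1.64 and 1.81 RPKM, with changes of 0.13 and 0.10. The knockout values of Mbtps2 were both above both flox values, though by 1.28 times at most from the lowest to the highest. The Mbtps1 to Mbtps2 ratio was 8.65 and 8.52 in the flox groups and 6.99 and 5.98 in the knockout groups. Of 22 genes of the SREBP pathway, which both proteases serve, 5 fell on chow (median -0.64), while on high fat 3 rose and 2 fell among the 21 compared (median -0.01). Genome-wide, 1.37% of genes fell on chow, and 1.07% rose and 1.86% fell on high fat. Srebf1, encoding SREBP1, read 79.7 and 143 RPKM in flox against 35.2 and 32.4 in knockout and fell on both diets (-1.16 and -2.11). Fasn, fatty acid synthase, changed by -1.35 and -0.70. The sterol synthesis genes Sqle (-0.60 and 2.16) and Idi1 (-0.53 and 1.79) rose in knockout on high fat, where their flox values were 1.79 and 6.89 RPKM against 30.7 and 113 on chow. Srebf2 (-0.31 and 0.05) and Stard4 (-0.35 and -0.28) differed least. Other genes past the mark, named after their values were seen, included Insig1 (-1.16) and Scd1 (-1.81) on chow and Insig2 (-1.19) and Cyp51 (1.18) on high fat. After rescaling by the median ratio the high-fat median of the list was 0.13, and with the 50 most abundant genes left out 6 rose and 1 fell on high fat.

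The CREB3 family differed among its members in which comparison moved them. Creb3l3 read 104 and 112 RPKM in flox and 101 and 70.5 RPKM in knockout. Knockout on high fat stood apart, while the other 3 lay between 101 and 112 RPKM. The knockout value was 96.5% of flox on chow (log2 -0.05) and 63.1% on high fat (-0.66), where 6.24% of genes were lower. Over the settings tried the chow change of Creb3l3 ran from -0.05 to 0.10. Creb3l2, a factor for secretory pathway genes, read 2.97, 4.36, 1.29 and 2.25 RPKM. Both knockout values of Creb3l2 were below both flox values, at 43.4% of flox on chow (-0.79) and 51.6% on high fat (-0.72), with 2.12% and 4.87% of genes lower. It was the member nearest the 2-fold mark after Xbp1 on both diets, followed by Eif2ak3 on chow and by Creb3l3 on high fat. Creb3 read 18.8, 16.8, 16.5 and 12.5 RPKM, again lowest in knockout high fat (-0.18 on chow and -0.40 on high fat). The Creb3l3 to Creb3l2 ratio ran from 25.6 in flox high fat to 78.1 in knockout chow, and the Creb3l3 to Creb3 ratio from 5.55 to 6.64.

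Of 21 kept genes listed under CREB3L3, a regulator of lipid and acute-phase genes, 1 rose on chow (median -0.26), and 1 rose and 1 fell on high fat (median -0.47). The shares over all genes were 0.252% risen and 1.37% fallen on chow, and 1.07% risen and 1.86% fallen on high fat. Apoa1, the main HDL apolipoprotein, fell on high fat (-0.73 on chow and -1.23 on high fat), and was not past 2-fold there with the 50 most abundant genes left out. Pla2g12b changed by -0.65 and -0.98, and Fads1, a fatty acid desaturase, by -0.95 and -0.54. Fgf21 was the one that rose on both diets (1.39 and 1.28, named after its values were seen), and it is also on the ATF4 list. It did not pass 2-fold with a pseudocount of 5 RPKM. Apoc2 (-0.26 and -0.12) and Mttp (-0.14 and -0.26) differed least. Of 7 genes listed under CREB3L2, all of them parts of COPII vesicles or the translocon, 1 fell on chow (median -0.18) and 0 passed 2-fold on high fat (median -0.55). The one that fell was Sec61a1 (-1.01 and -0.81), which read 43.7 and 39.1 RPKM in flox against 21.2 and 21.9 in knockout. It did not pass 2-fold under either rescaling. Sec24d changed by -0.63 and -0.71, Sec24a by -0.18 and -0.56 and Sar1b by -0.10 and -0.55. Sec23a (-0.08 and -0.25) and Sec31a (-0.27 and -0.17) differed least. Sec61a1, Sec24d and Sec31a are also on the XBP1s list, so the CREB3L2 list is not independent of it.

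Relatives of the 10 genes did not pass 2-fold where they could be compared. Ern2, the gut form of IRE1, is listed at 0 in both flox groups and reached 0.0033 RPKM at most. Creb3l1 was at 0.496, 0.556, 0.743 and 0.992 RPKM and Creb3l4 at 0.152 RPKM or less, so these 3 did not pass the filter. Of the other eIF2alpha kinases, Eif2ak1 (HRI) stood at 20.2, 18.6, 17.4 and 16.2 RPKM, Eif2ak2 (PKR) at 5.56, 6.35, 5.50 and 6.44 RPKM, and Eif2ak4 (GCN2) at 1.15, 1.26, 1.11 and 1.21 RPKM. Eif2ak3 was thus the eIF2alpha kinase gene with the lowest knockout to flox ratio on both diets. Crebzf read 3.23, 3.26, 2.91 and 2.53 RPKM and Crebrf (listed under the symbol A930001N09Rik) 2.77, 4.01, 2.63 and 3.40 RPKM. The 5 kept relatives had medians of -0.06 on chow and -0.19 on high fat, which turned to 0.05 and 0.12 with the 50 most abundant genes left out.

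**Figure D3:**
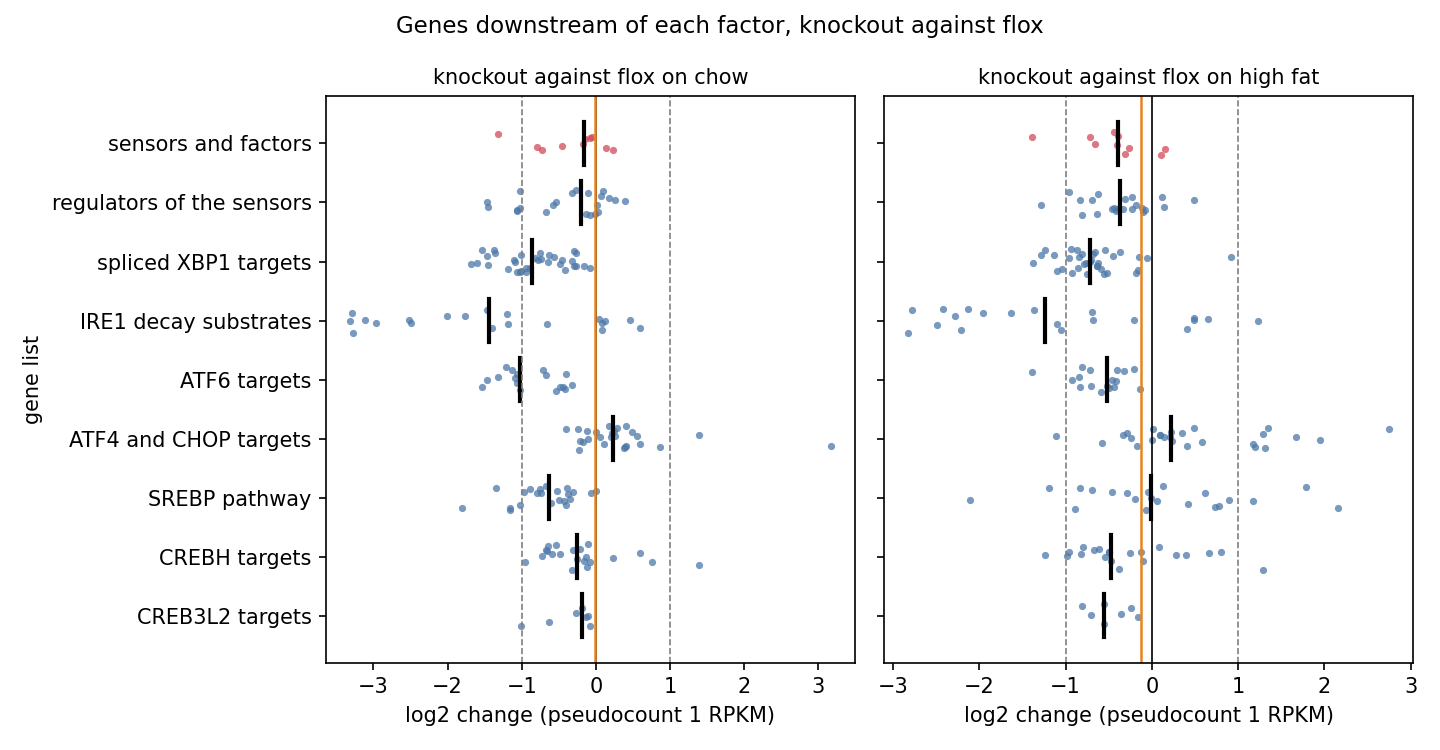
Log2 change of RPKM + 1 for every compared gene of each list, knockout against flox on chow and on high fat; black bars are list medians and orange lines the median of all genes. The IRE1 decay list (medians -1.44 and -1.23) lies furthest left. The XBP1s list (-0.86 and -0.71) and the ATF6 list (-1.02 and -0.52) also lie left, and the ATF4 and CHOP list (0.23 and 0.22) right. Other lists to the left include the SREBP pathway on chow (-0.64) and the CREB3L2 and CREB3L3 lists on high fat (-0.55 and -0.47).

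Across the set, 2 of 10 genes were above 0 in knockout against flox on each diet, against 45.8% of all genes on chow and 29.9% on high fat, so the high-fat count is near the background. The other 8 were below 0, with Ern1 and Mbtps2 above 0 on both; with the 50 most abundant genes left out, 4 were above 0 on chow and 3 on high fat. The 2 comparisons do not share samples. On chow 1 member, Xbp1, fell and 0 rose, against 1.37% of the 10322 genes compared that fell and 0.252% that rose. On high fat again Xbp1 fell and 0 members rose, against 1.86% of 10327 genes that fell and 1.07% that rose. Since Xbp1 is the targeted gene, 0 of the other 9 passed 2-fold on either diet. The members' median was -0.16 on chow and -0.40 on high fat. Taken from the all-gene median, the high-fat changes were -1.26 for Xbp1, -0.59 for Creb3l2, -0.53 for Creb3l3, 0.28 for Ern1 and 0.24 for Mbtps2, with the other 5 between -0.30 and -0.13. On high fat, genome-wide calls numbered 111 higher and 192 lower as deposited, 142 and 120 after rescaling by the median ratio, and 193 and 90 with the 50 most abundant genes left out. Xbp1 fell under each scaling, by 1.28 and 1.17 on chow and by 1.22 and 1.09 on high fat on the log2 scale. With the smaller pseudocount of 0.1 RPKM, Eif2ak3 (-1.05) and Creb3l2 (-1.14) also passed 2-fold on chow.

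**Figure D4:**
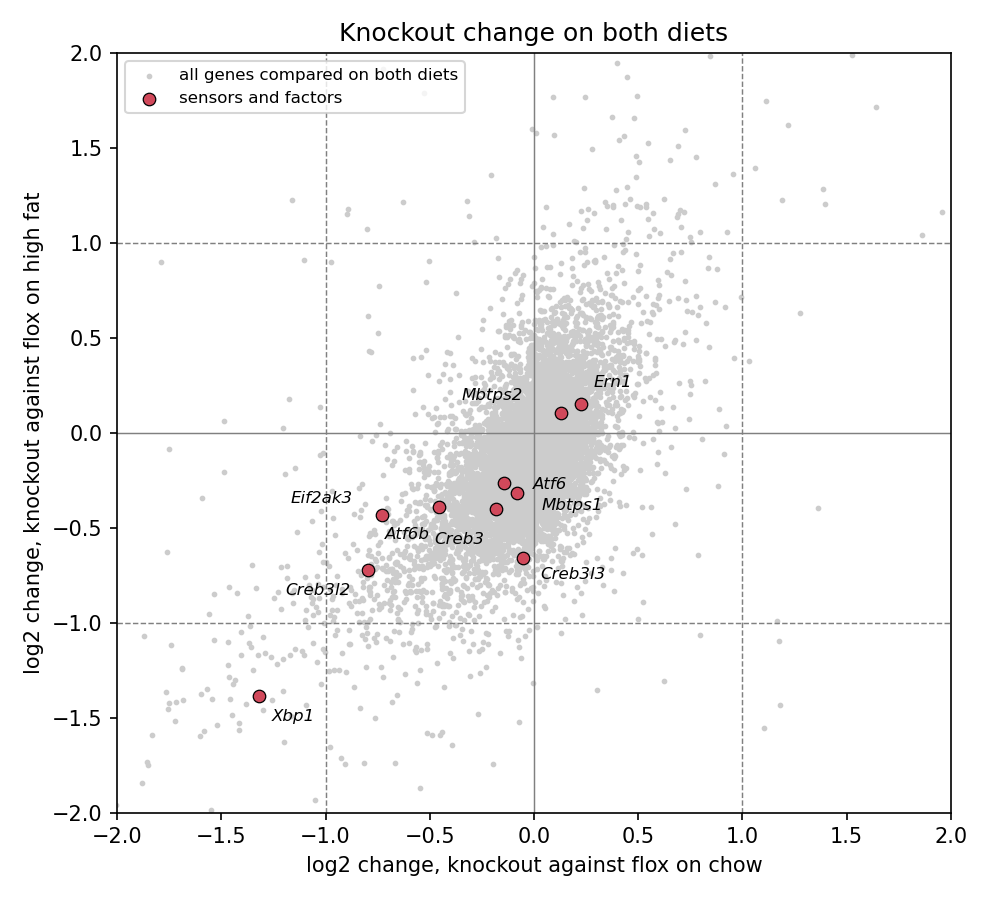
Log2 change of RPKM + 1, knockout against flox, on chow (x axis) and on high fat (y axis); grey points are all genes compared on both diets that lie within the axes (10271 of 10319) and red points the 10 genes. Xbp1 is past the 2-fold mark on both axes, Creb3l2 and Eif2ak3 lie between it and the bulk, and Creb3l3 is near 0 on chow and at -0.66 on high fat.

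The diet moved none of the 10 mRNAs past 2-fold in either genotype. In flox livers 7 of 10 were higher on high fat than on chow and 3 were lower (median 0.13), where 47.5% of all genes were higher, and 0 passed 2-fold, against 0.213% of all genes that rose and 0.426% that fell. Creb3l2 had the largest flox value, at 147% of chow (0.43), followed by Ern1 at 140% (0.39) and Atf6 at 125% (0.29). Of all genes, 2.80%, 3.46% and 7.54% were higher than these. Xbp1 was at 81.3% of chow (-0.30), Atf6b at 85.2% (-0.20) and Creb3 at 89.4% (-0.15). In knockout livers 5 members were higher, where 33.6% of all genes were, and 5 lower (median 0.01; 7 were higher with the 50 most abundant genes left out), and 0 passed 2-fold, against 0.668% of all genes that rose and 0.794% that fell. Creb3l2 at 175% of chow (0.51), Eif2ak3 at 163% (0.45) and Ern1 at 130% (0.32) were highest, and Creb3l3 at 70.0% (-0.51) was lowest. Genome-wide calls in this comparison were 69 higher and 82 lower as deposited, 92 and 61 by the median ratio, and 134 and 47 with the 50 most abundant genes left out. Atf6b (-0.13) and Mbtps1 (-0.08) turned above 0 under some settings, to 0.10 and 0.19 at most. In flox livers the split of 22 higher and 44 lower became 31 and 35 with the 50 most abundant genes left out.

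The difference between the knockout changes on the 2 diets, which is also the difference between the diet changes in the 2 genotypes, was greatest for Creb3l3. Its value was -0.61, rank 281 from the lowest of 10319 genes, and 0 of the 10 members passed 2-fold, against 1.23% of all genes in either direction. Creb3l3 was 107% of chow on high fat in flox and 70.0% in knockout, and these signs were opposite under each scaling, with differences of -0.47 by the median ratio and -0.45 with the 50 most abundant genes left out. The 8 compared hepatocyte markers had a median difference of -0.31, with 7 below 0 and 1 above 0. Of the members, Eif2ak3 was the most positive at 0.30, with 7.82% of genes higher. The other 8 lay between -0.23 (Mbtps1) and 0.07 (Creb3l2), around the all-gene median of -0.10. The signs for Xbp1, Ern1, Atf6, Mbtps2 and Creb3l2 depended on the setting. Genome-wide, 68 genes passed 2-fold upwards and 59 downwards as deposited, 92 and 38 by the median ratio, and 105 and 35 with the 50 most abundant genes left out.

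Promoter windows were read from RefSeq (GRCm38.p6), 250 bases before to 50 after each start, to show which known stress elements stand near the starts of these genes. A window was found for 9 of the 10 members, Atf6 being the other one, and 32851 windows were searched on both strands. The ER stress element ERSE (CCAAT, any 9 bases, CCACG) was in 0.119% of all windows, ERSE-II (ATTGG, any 1 base, CCACG) in 0.0365%, and the UPRE core TGACGTGG in 0.676%. The ATF4 core TGATGNAA was in 3.97% and the palindromic CRE, TGACGTCA, in 1.79%. None of these 5 letter patterns was in a member's window. The CCACG core, which ERSE and ERSE-II contain, was in 32.8% of all windows and in those of Creb3, Creb3l3, Ern1 and Mbtps1. The 250 bases before the start are printed for the 3 genes with the lowest log2 change of knockout against flox on chow. They are Xbp1 at chr11:5520391-5520640 (plus strand), Eif2ak3 at chr6:70844265-70844514 (plus) and Creb3l2 at chr6:37442149-37442398 (minus). Capitals mark CCAAT on either strand (CCAAT or ATTGG), the remaining box of ERSE, which was searched after the windows had been read.
Xbp1: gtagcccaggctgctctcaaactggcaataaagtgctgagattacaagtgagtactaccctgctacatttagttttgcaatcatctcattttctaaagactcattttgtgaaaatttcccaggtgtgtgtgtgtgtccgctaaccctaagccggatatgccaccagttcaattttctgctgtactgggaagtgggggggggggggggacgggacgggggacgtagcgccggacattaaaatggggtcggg
Eif2ak3: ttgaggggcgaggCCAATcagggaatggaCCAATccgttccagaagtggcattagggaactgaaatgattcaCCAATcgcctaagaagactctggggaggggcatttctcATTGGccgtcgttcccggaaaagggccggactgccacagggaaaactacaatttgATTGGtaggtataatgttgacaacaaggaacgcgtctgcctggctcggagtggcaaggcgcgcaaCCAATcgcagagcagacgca
Creb3l2: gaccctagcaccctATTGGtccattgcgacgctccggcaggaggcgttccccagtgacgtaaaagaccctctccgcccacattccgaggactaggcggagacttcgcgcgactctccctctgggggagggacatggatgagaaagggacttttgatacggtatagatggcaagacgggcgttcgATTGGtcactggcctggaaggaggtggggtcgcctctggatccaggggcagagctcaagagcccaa
The Eif2ak3 stretch held 6 CCAAT boxes, a number reached in 19 of 32851 windows (0.0578%). Creb3l2 held 2, as did or exceeded 10.1% of windows, and Xbp1 held 0, while 33.8% of windows held at least 1. These matches describe letters in a window and show no binding.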

How the data were processed

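Liver RNA was sequenced in 8 libraries, 2 per group. The authors deposited 1 RPKM table per group, per the file headers, with 23179 rows each; the sources used here do not say how the 2 libraries were combined. Tables were assigned to groups by name. The submitters' processing notes list TopHat2 2.0.7, Cuffdiff 2.1.1 and mm10, without roles. Rows of 158 repeated symbols were summed. Whole reads could not be recovered from low values, so depth is unknown. Python 3.11.15, numpy 2.4.6 and pandas 2.3.3 were used, and the code was tested on simulated data.

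Changes are log2((a + 1)/(b + 1)) in RPKM over genes with at least 1 RPKM in a group and no 0 in the groups compared, called at 2-fold. Alternatives were pseudocounts of 0.1 and 5, no filter or 5 RPKM, a 1.5-fold mark, the highest of repeated rows and 2 rescalings. The members, the lists (relatives, sensor regulators, targets of XBP1s, ATF6, ATF4 and CHOP, CREB3L3 and CREB3L2, SREBP pathway, IRE1 decay substrates, cell type markers) were chosen with earlier results of these data known. Named from each list were the 4 genes with the largest change in either knockout comparison and the 2 with the smallest mean change, at 5 RPKM or more in a group. Some genes of these lists are not reported here.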

Additional observations from a re-analysis of the deposited data

Results flagged for a closer look

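For Creb3l3 the diet change went opposite ways in the 2 genotypes, upwards in flox (0.10) and downwards in knockout (-0.51), so that knockout minus flox was -0.61 on the log2 scale of RPKM + 1. With 1 deposited value per group the difference was not tested. The pattern was not particular to Creb3l3. Of the 8 compared hepatocyte markers, 3 were above 0 for diet in flox and 0 in knockout. Their median difference was -0.31, with 7 below 0 and 1 above 0, beside an all-gene median of -0.10.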

How the results depend on the processing

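No paired analysis was possible because 1 value per gene and group was deposited. All 385 member values stayed within 1.5-fold of the reported ones, whether or not their sign changed. The only called member values were those of Xbp1 in both knockout comparisons. These kept their direction and passed 2-fold under every setting that used that mark. Signs of uncalled members changed under some setting for 2 and 1 of 10 in knockout on chow and on high fat, 0 and 2 for diet in flox and in knockout, and 5 for the difference between diets. Counts over all genes and over members that moved by over 1.5 times are given as higher or lower. With a pseudocount of 0.1 RPKM, 81 were higher in knockout on chow, 231 on high fat, 61 for diet in flox, 189 for diet in knockout, and 143 higher and 97 lower for the difference between diets, and 3 members were lower on chow. With a pseudocount of 5 RPKM, 9 were higher and 87 lower in knockout on chow, 37 and 119 on high fat, 11 and 29 for diet in flox, 30 higher for diet in knockout, and 38 and 30 for the difference. At a minimum of 5 RPKM, 64 were higher in knockout on high fat. At 1.5-fold, 113 were higher and 396 lower in knockout on chow, 330 and 860 on high fat, 127 and 173 for diet in flox, 277 and 485 for diet in knockout, and 239 and 313 for the difference, with 3 members lower in each knockout comparison and 1 in the difference. By the median ratio, 120 were lower in knockout on high fat and 38 for the difference. Without the 50 most abundant genes, 193 were higher and 90 lower in knockout on high fat, 134 and 47 for diet in knockout, and 105 and 35 for the difference. For the lists, 52 of the values tried moved and 524 did not. Besides those given with the lists, at a minimum of 5 RPKM 1 ATF4 and CHOP gene rose on chow and 5 on high fat, and at 1.5-fold 23 XBP1s targets were lower on chow and 24 on high fat, 8 ATF6 targets and 7 sensor regulators were lower on high fat, 4 ATF4 and CHOP genes were higher on chow, 12 SREBP pathway genes were lower on chow, 7 were higher and 5 lower on high fat, and 6 and 7 CREB3L3 targets were lower on chow and on high fat. The remaining list counts that moved were of 3 genes or fewer. The cause of these moves was not tested. Unknown depth leaves the precision of low values, such as those of Mbtps2, unstated.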

Other observations

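Markers of further cell types were summed in the same order of groups. Endothelial markers gave 95.2, 87.5, 87.9 and 87.6 RPKM and B and plasma cell markers 45.8, 45.2, 50.4 and 35.6 RPKM. Most of the B and plasma cell sum was Sdc1, at 42.6 RPKM in flox on chow and 30.8 RPKM in knockout on high fat. Its log2 change in knockout against flox on high fat was -0.44, against 0.35 for Cd79a, 0.17 for Cd79b and 0.69 for Igj. Cd79a, Cd79b and Igj stayed at 2.02 RPKM or less in every group. Erythroid markers gave 715, 929, 1013 and 505 RPKM and adipocyte markers 11.6, 21.3, 9.88 and 10.5 RPKM. The higher adipocyte sum in flox on high fat came from Cfd, at 0.533 RPKM in flox on chow and 9.76 RPKM in flox on high fat. The other compared adipocyte gene, Fabp4, had a log2 change of 0.06 between these groups. T and NK cell markers stayed at 2.25 RPKM or less. Pancreatic acinar markers gave 13.0, 6.71, 9.65 and 4.16 RPKM, with Prss2, Try4, Cpa1, Pnlip and Ctrb1 listed at 0 in all groups.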
